A study of Homo sapiens with 12 samples.

Results

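The genes described here are 10 markers and regulators by which epithelial and mesenchymal cells are told apart, chosen by symbol from the 19973 genes listed in the table: CDH1, EPCAM, CDH2, VIM, FN1, SNAI1, SNAI2, ZEB1, ZEB2 and TWIST1. All 10 were found, each once. They were read in 2 human non-small cell lung cancer (NSCLC) cell lines labelled as wild type, H460, a large cell carcinoma line, and A549, an adenocarcinoma line. The study states that each line carries homozygous inactive mutations of KEAP1, so the label does not describe that gene. Each line was either non-treated (control) or treated with isovalerylspiramycin I (ISP-I), a component of the macrolide antibiotic carrimycin, at 10 µM for 48 h. There were 3 RNA-seq libraries per group, 12 in all. Whether the control cells received the solvent is not given in the sources used here, nor whether the libraries of a group came from separate cultures, so p values measure the spread between these libraries only.

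Epithelial cells hold together through E-cadherin, the product of CDH1, and through EPCAM, an epithelial adhesion molecule. In epithelial-mesenchymal transition (EMT) these are lost, and N-cadherin (CDH2), the intermediate filament protein vimentin (VIM) and the matrix protein fibronectin (FN1) are gained. The zinc finger repressors SNAI1 (Snail), SNAI2 (Slug), ZEB1 and ZEB2 and the basic helix-loop-helix factor TWIST1 are known drivers of the transition, and the zinc finger factors bind E-box sequences, among them those of the CDH1 promoter. The same genes can be used in part, and many carcinoma lines hold epithelial and mesenchymal markers at once.

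Values are the authors' FPKM, fragments scaled to the listed gene length and to the library's reads on genes. Depth was 14225849 to 17874422 reads on genes per library. In H460, ISP-I library 3 stood apart from the other two of its group (chi-square per degree of freedom 58.1 and 98.7, against 22.9 between the others), and in A549 control library 3 did (28.0 and 32.5, against 3.38). Among the 10 genes, the main results that rest on these libraries are given with and without them. Genes of the further lists below are given with all libraries only. Each line held keratin RNA of simple epithelia: KRT8 averaged 194.4 FPKM in H460 controls and 649.9 in A549 controls, and KRT18 70.3 and 331.4. KRT7 was high in A549 controls only (557.3, against 1.17 in H460). Of 6 epithelial markers, 4 averaged at least 1 FPKM in H460 controls and 6 in A549 controls, and the 2 missing in H460 were CDH1 and EPCAM. The summed FPKM of 13 leukocyte, endothelial and fibroblast markers was 9.54 to 10.5 in H460 controls, nearly all of it COL3A1 (8.60), and 3.01 to 3.45 after ISP-I. In A549 the sum was 0.984 to 1.37 in controls and 1.24 to 1.46 after ISP-I. PTPRC, CD3E, CD68, COL1A2 and PDGFRA had no reads in H460 controls.

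After ISP-I, SNAI1, SNAI2, ZEB1 and ZEB2 were higher and FN1 and CDH2 lower in each line, VIM was higher in A549, and CDH1 fell in A549, the line that had it. Genes of the mesenchymal state thus moved in opposite directions in the same cultures. The largest change was that of SNAI2 in H460, from 1.75 to 49.8 FPKM. In H460, 7 of the 10 genes averaged at least 0.1 FPKM and were tested, and 4 were called higher and 2 lower (Benjamini-Hochberg adjusted p under 0.05 and a change of more than 2-fold, limma on log2(FPKM + 1)). Of all 13423 genes tested in H460, 25.7% were called, 10.5% higher and 15.2% lower. In A549 all 10 were tested, and 1 was called higher and 2 lower, where 7.71% of 13705 genes were called, 4.2% higher and 3.51% lower. At an adjusted p under 0.05 with no fold threshold, the numbers in A549 were 5 higher and 4 lower, against 30.5% and 27% of all genes tested (57.5% in all), and in H460 they were again 4 and 2, against 27.6% and 41.5% (69.2% in all). ZEB2, among the 5 higher in A549, passed the filter of 0.1 FPKM there through its treated libraries only. Treated and control libraries did not overlap for 6 of the 7 genes in H460, as for 72.7% of all genes, and for 10 of 10 in A549, as for 65.5%. The median log2 fold change of the tested genes was 1.13 in H460 and 0.20 in A549, beside medians of -0.15 and 0.02 over all genes. The 10 genes were chosen with earlier results of these data known, so these counts and medians are a description only. Scaling FPKM by median-of-ratios moved the median of all genes in H460 by 0.16, and the share of its calls that were higher from 40.8% to 57.2%, and the size of a log2 change in H460 carries that uncertainty. Among the changes with ISP-I of the 10 genes, it turned the direction of VIM in H460 alone, and left CDH2 there at -0.98, just short of 2-fold.

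**Figure D1:**
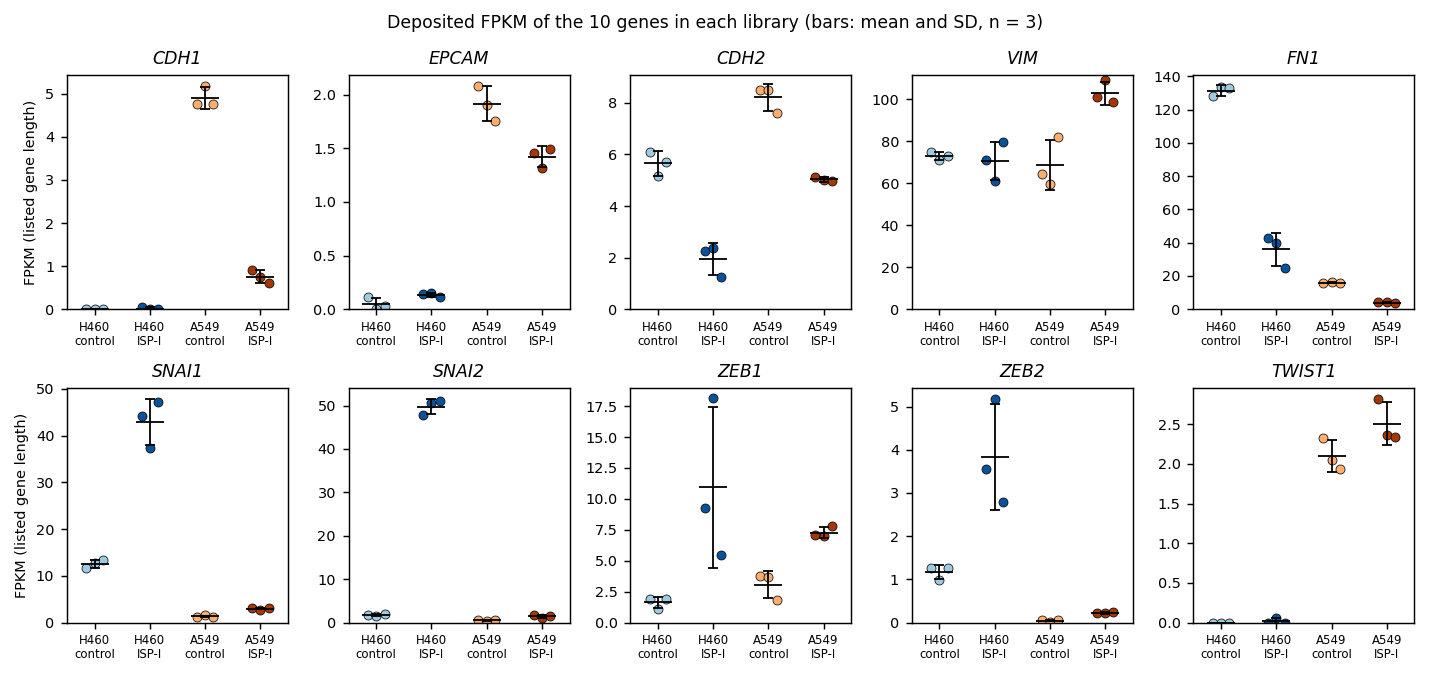
FPKM of the 10 genes (y axis, its own scale in each panel, starting at 0) in the 3 libraries of each group (points), with the mean and SD (bars). SNAI2 in H460 went from 1.61 to 1.96 FPKM in controls to 47.7 to 51.0 after ISP-I, while CDH1 had no reads in H460 controls and fell in A549 from 4.75 to 5.18 to 0.605 to 0.911.

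CDH1 (chromosome 16, 68737292 to 68835541, plus strand, hg38) encodes E-cadherin, the calcium-dependent adhesion protein of epithelial adherens junctions. In A549 controls it had 4.77, 5.18 and 4.75 FPKM (414, 465 and 428 reads), and after ISP-I 0.911, 0.752 and 0.605 (83, 72 and 53 reads). Each treated library was below every control library. The level fell 6.48-fold (log2 fold change -1.75, SE 0.09, limma adjusted p 2.74e-06), and -2.70 on the recovered reads, where no pseudocount of 1 draws low genes toward 0. Whether fewer cells made CDH1 RNA or each cell made less cannot be told apart in bulk RNA. In H460, CDH1 had no read in any control library, and 5, 0 and 0 reads after ISP-I. Against a limit of 3 reads per library, the A549 controls were at least 147.7-fold higher than the H460 controls (log2 difference -2.56 on log2(FPKM + 1), adjusted p 2.87e-08). CDH1 in H460 was too low to be tested for ISP-I, and a further fall there was not detectable at this depth.

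EPCAM (chromosome 2, 47345158 to 47387601) encodes an adhesion molecule of simple epithelia. It had 2.08, 1.90 and 1.76 FPKM in A549 controls (72, 68 and 63 reads) and 1.46, 1.31 and 1.49 after ISP-I (53, 50 and 52 reads). The groups did not overlap, but the difference was small, 1.35-fold lower (log2 -0.27, SE 0.08, adjusted p 0.0188). The adjusted p was above 0.05 on the recovered reads with library totals (-0.43, 0.0569) but not with median-of-ratios (-0.44, 0.0474), and above it without A549 control library 1 (0.0639) or ISP-I library 2 (0.0741). In H460, EPCAM had 4, 0 and 1 reads in controls and 6, 6 and 4 after ISP-I, too few for the test. Over the control libraries together, 5 reads in H460 stood against 203 in A549, a ratio with a 95% exact counting interval of 0.00777 to 0.0574.

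CDH2 (chromosome 18, 27932879 to 28177946, minus strand) encodes N-cadherin, the neural and mesenchymal counterpart of E-cadherin. In H460 it had 6.09, 5.15 and 5.72 FPKM in controls and 2.24, 2.36 and 1.23 after ISP-I. In A549 it had 8.5, 8.51 and 7.61 in controls and 5.13, 5.01 and 4.96 after ISP-I. Treated and control libraries did not overlap in either line. CDH2 fell 2.90-fold in H460 (log2 -1.20, SE 0.17, adjusted p 0.000281) and 1.63-fold in A549 (-0.61, SE 0.07, adjusted p 0.000224). ISP-I library 3 of H460 had the lowest level, and without it the H460 change was -1.01. So the mesenchymal cadherin was lower together with the epithelial one in A549, and lower in H460, which had no E-cadherin RNA to lose. Among controls, CDH2 was 1.45-fold lower in H460 than in A549 (log2 -0.47, adjusted p 0.00275).

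The ratio of the cadherins within a library is free of any scaling between libraries. In A549 controls, CDH2 FPKM was 1.78, 1.64 and 1.60 times CDH1 FPKM, and after ISP-I 5.64, 6.67 and 8.18 times. Every treated library thus held relatively less CDH1 than any control library, although each cadherin had fallen. VIM FPKM was 30.9, 31.2 and 46.7 times EPCAM FPKM in A549 controls and 69.0, 83.2 and 66.1 times after ISP-I, again without overlap. These ratios are given as a description, with no test.

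**Figure D2:**
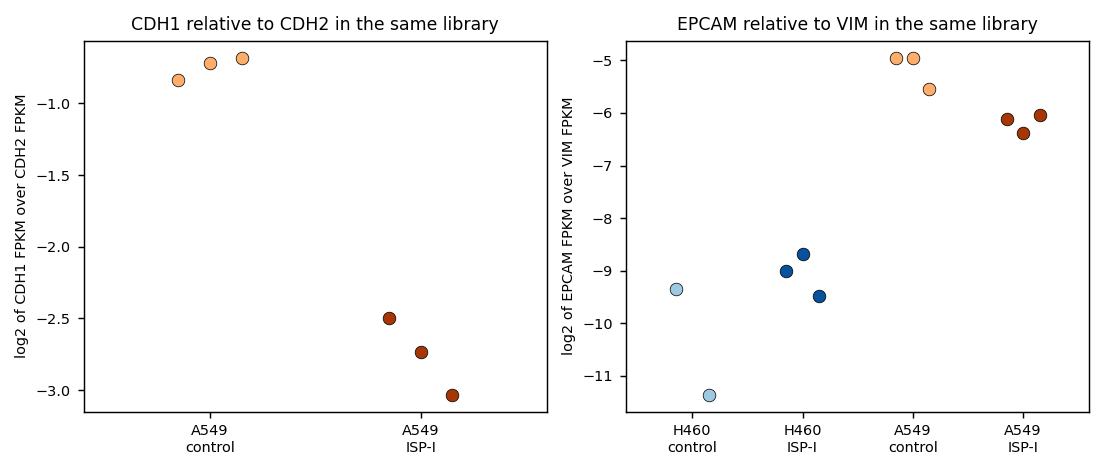
Log2 of CDH1 FPKM over CDH2 FPKM (left, A549 only) and of EPCAM FPKM over VIM FPKM (right) in each library (points). In A549 the first fell from between -0.83 and -0.68 to between -3.03 and -2.50, and H460 control library 2, with no EPCAM read, is not drawn.

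VIM (chromosome 10, 17228241 to 17237593, plus strand) encodes vimentin, the intermediate filament of mesenchymal cells and of many cultured carcinoma lines. It had 75.0, 71.2 and 72.7 FPKM in H460 controls and 71.2, 61.0 and 79.4 after ISP-I. These groups overlapped, and the change did not pass the test (log2 -0.06, SE 0.13, adjusted p 0.722). Its sign depended on the scaling, being 0.23 (adjusted p 0.171) with median-of-ratios and 0.04 without ISP-I library 2. In A549, VIM had 64.3, 59.4 and 82.0 FPKM in controls and 100.8, 109.1 and 98.6 after ISP-I. All treated libraries were higher, by 1.499-fold in the mean (0.59, SE 0.12, adjusted p 0.00301), and by 0.72 (log2) without control library 3, the highest of the controls. The H460 and A549 controls overlapped (log2 difference 0.10, adjusted p 0.498), although without A549 control library 3 H460 was higher by 0.24 (adjusted p 0.0307). VIM was therefore abundant in each line before any treatment, at a level above 96.7% of the genes with reads in H460 controls and 96.9% in A549 controls.

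FN1 (chromosome 2, 215360440 to 215436073, minus strand) encodes fibronectin, a secreted matrix glycoprotein bound by integrins. In H460 it had 128.0, 133.7 and 132.9 FPKM in controls and 43.0, 40.1 and 24.7 after ISP-I. In A549 it had 15.9, 16.5 and 15.5 in controls and 4.35, 4.10 and 3.69 after ISP-I. In each line all treated libraries were far below the controls. FN1 fell 3.66-fold in H460 (log2 -1.88, SE 0.20, adjusted p 5.32e-05) and 3.95-fold in A549 (-1.75, SE 0.08, adjusted p 1.33e-06). Without ISP-I library 3, the lowest of its group, the H460 change was -1.64 (SE 0.10). H460 controls held 8.24 times as much FN1 as A549 controls (2.97, SE 0.08, adjusted p 1.23e-08), the opposite order to that of CDH1. Treated H460 cells still had more FN1 than untreated A549 cells in every library.

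SNAI1 (chromosome 20, 49982980 to 49988886, plus strand) encodes Snail, a short-lived zinc finger repressor. In H460 it had 11.7, 12.8 and 13.3 FPKM in controls and 44.1, 37.4 and 47.2 after ISP-I. In A549 it had 1.28, 1.52 and 1.27 in controls (31 to 38 reads) and 3.10, 2.77 and 3.07 after ISP-I (74 to 79 reads). The groups did not overlap in either line. SNAI1 rose 3.41-fold in H460 (log2 1.69, SE 0.13, adjusted p 7.06e-06) and 2.20-fold in A549 (0.76, SE 0.08, adjusted p 0.000112), where the plain ratio was over 2 but the change on log2(FPKM + 1) was not. On the recovered reads the A549 change was 1.12 (voom adjusted p 0.000794). H460 controls had 9.29 times the level of A549 controls (2.53, adjusted p 1.07e-07).

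SNAI2 (chromosome 8, 48917598 to 48921740, minus strand) encodes Slug, its close relative. It had 1.67, 1.61 and 1.96 FPKM in H460 controls (79 to 96 reads) and 47.7, 50.6 and 51.0 after ISP-I (2481 to 2800 reads). In A549 it had 0.471, 0.435 and 0.681 in controls (21 to 33 reads) and 1.65, 1.05 and 1.59 after ISP-I (54 to 81 reads). The H460 libraries of each group lay close together, and the lowest treated library (47.7) stood far above the highest control (1.96). In A549 the treated libraries were higher than the controls as well, but only up to the range of untreated H460 cells. SNAI2 rose 28.5-fold in H460 (log2 4.21, SE 0.11, adjusted p 8.26e-08, and 4.83 on the recovered reads) and 2.71-fold in A549 (0.66, SE 0.11, adjusted p 0.00144, and 1.41 on the recovered reads). The level of SNAI2 in treated H460 cells was above 95.1% of the genes with reads there, from 43.1% in controls. With any single H460 library left out, the change was between 4.17 and 4.27.

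ZEB1 (chromosome 10, 31318495 to 31529814, plus strand) encodes a zinc finger and homeodomain repressor with E-box binding fingers at each end. ZEB1 had 1.90, 1.10 and 1.91 FPKM in H460 controls and 9.29, 18.1 and 5.45 after ISP-I. The treated libraries were all higher than the controls but spread widely, library 2 being the highest and library 3 the lowest. In A549 it had 3.74, 3.66 and 1.79 FPKM in controls and 7.06, 6.96 and 7.81 after ISP-I, with control library 3 well below the other two. ZEB1 rose 6.68-fold in H460 (log2 2.05, SE 0.35, adjusted p 0.000808), by 2.43 (SE 0.25) without ISP-I library 3 and by 1.64 (SE 0.22) without ISP-I library 2. It rose 2.38-fold in A549 (1.07, SE 0.19, adjusted p 0.0018), and by 0.82 without control library 3, which puts it under the 2-fold threshold with an adjusted p of 3.68e-06. Controls of the lines overlapped. The difference of -0.60 between them had an adjusted p of 0.0429, which rose above 0.05 when any single library other than A549 control library 3 was left out (0.0659 to 0.14).

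Of the 10 genes, 5 had windows of 250 bases before to 50 after a start site in RefSeq (GRCh38.p14): CDH2, FN1, VIM, ZEB1 and ZEB2, with 12 windows in all. Windows of the other 5 were not analysed here. The E-box form CAGGTG, searched on each strand (on the other strand it reads CACCTG, and the 2 forms never overlap), stood in 2 of the 12 windows, each of them at ZEB1, and in 20.6% of all 35116 windows. Most of the 12 windows were those of ZEB1. The ZEB1 sites are shown as the only ones found, with the E-box in capitals and the flanking bases in lower case, all read on the plus strand.
ZEB1 chr10:31318348-31318377: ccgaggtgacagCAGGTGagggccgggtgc
ZEB1 chr10:31318966-31318991: ccccaccaCACCTGaggaaaactttt
ZEB1 chr10:31319119-31319148: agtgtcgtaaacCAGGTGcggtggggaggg
ZEB1 chr10:31319237-31319265: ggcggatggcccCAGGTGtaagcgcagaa
The first lies in a window that ends at 31318466, before the listed start of the ZEB1 gene (31318495). The last 3 lie in the window of the start site of the MANE Select transcript (31319216), at -242, -85 and 33 bases from it. A match describes these letters only, and none of the files measured binding.

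ZEB2 (chromosome 2, 144364364 to 144521057, minus strand) encodes the second ZEB repressor. In H460 it had 1.27, 0.996 and 1.25 FPKM in controls and 3.55, 5.18 and 2.79 after ISP-I. In A549 it had 0.0512, 0.0235 and 0.0623 in controls (19, 9 and 24 reads) and 0.213, 0.220 and 0.251 after ISP-I (83, 90 and 94 reads). The groups were apart in each line, at levels that differed greatly between the lines. In A549 the means were 0.0456 FPKM in controls and 0.228 after ISP-I. There ZEB2 passed the filter of 0.1 FPKM through its treated libraries only, and its p values in A549 carry that limit. ZEB2 rose 3.27-fold in H460 (log2 1.13, SE 0.18, adjusted p 0.000493) and 4.995-fold in A549, a change of only 0.23 on log2(FPKM + 1) (SE 0.05, adjusted p 0.00427) and of 2.39 on the recovered reads (adjusted p 0.000216). On log2(FPKM + 1) the adjusted p in A549 was 0.168 when all 12 libraries shared 1 fit, and without H460 ISP-I library 2, the highest of its group, the H460 change was 0.94, under the 2-fold threshold. H460 controls had 25.7 times the level of A549 controls (1.05, adjusted p 4.16e-06).

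TWIST1 (chromosome 7, 19020991 to 19117636, minus strand) encodes a basic helix-loop-helix factor of mesoderm. It had 2.32, 2.04 and 1.93 FPKM in A549 controls (57 to 66 reads) and 2.82, 2.36 and 2.34 after ISP-I (67 to 84 reads). The groups did not overlap, with 2.32 the highest control and 2.34 the lowest treated library, and the difference did not pass the test (log2 0.18, SE 0.09, adjusted p 0.127). In H460 no control library had a read, and treated libraries had 0, 2 and 0. Against a limit of 3 reads per library, A549 controls were at least 20.7-fold higher (-1.63, adjusted p 2.98e-07). TWIST1 thus shared with CDH1 and EPCAM a level near 0 in H460.

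**Figure D3:**
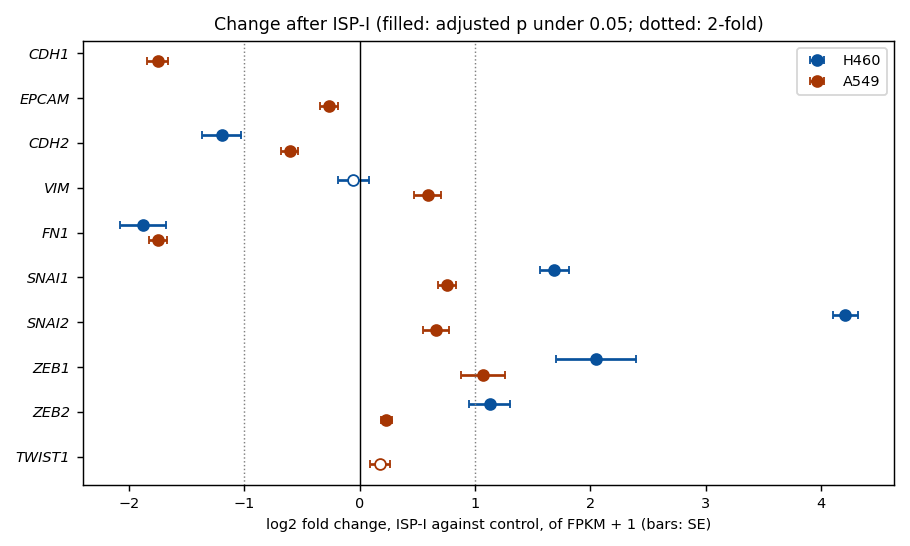
Log2 fold change of FPKM + 1 after ISP-I (x axis, bars are the SE) for each gene in H460 (blue) and A549 (brown). Filled points passed an adjusted p under 0.05 and dotted lines mark 2-fold, FN1 fell alike in the lines (-1.88 and -1.75), SNAI2 rose by 4.21 in H460 and 0.66 in A549, and CDH1, EPCAM and TWIST1 were not tested in H460.

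Control H460 and A549 cells differed in 9 of the 10 genes at an adjusted p under 0.05 (4 higher and 5 lower in H460, against 28.6% and 31.6% of all genes, 60.2% in all), and by more than 2-fold on log2(FPKM + 1) in 6 (3 higher and 3 lower), where 14.4% of 13532 genes were called, 5.64% higher and 8.78% lower. The libraries of the lines did not overlap for 8 of the 10 genes, as for 64.8% of all genes, and VIM and ZEB1 overlapped. SNAI1, ZEB2 and FN1 were called higher in H460, and CDH1, EPCAM and TWIST1 lower. In H460 controls CDH1, EPCAM and TWIST1 had 0, 5 and 0 reads in all, so they passed the filter through A549 only. ZEB2, at 0.0456 FPKM in A549 controls, passed it through H460 only. For these genes the calls restate a level near 0 in 1 line, and the counts carry that limit. SNAI2 was 3.30-fold higher in H460 as a plain ratio (log2 0.85, adjusted p 7.72e-05). This comparison uses the same control libraries as those with ISP-I.

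The change with ISP-I itself differed between the lines in 2 of the 10 genes by more than 2-fold (limma interaction over 12 libraries, adjusted p under 0.05), each more positive in H460, as it did in 16% of 13953 genes, with 5.93% more positive and 10.1% more negative in H460. That balance turned with median-of-ratios scaling, which moved the share of more positive calls from 37.0% to 61.1%. Without the fold threshold the numbers were 5 more positive and 2 more negative, against 18.6% and 34.7% (53.3% in all). The 2 beyond 2-fold were SNAI2, whose rise was larger in H460 by 3.55 (log2, SE 0.16, adjusted p 1.13e-08), and CDH1 (1.77, SE 0.10, adjusted p 6.78e-08). CDH1 passed the filter through A549 only and could fall only there, so its difference restates that fall and is no separate result. EPCAM, among the 5 more positive genes, had too few reads in H460 to be tested there. SNAI1 rose more in H460 by 0.93 (adjusted p 0.000131, and 0.64 with 0.0491 on the recovered reads). CDH2 fell more in H460 (-0.59, adjusted p 0.021) and VIM was relatively higher in A549 (-0.65, adjusted p 0.00902), and with median-of-ratios scaling neither adjusted p was under 0.05 (0.132 and 0.169). For FN1 the difference was -0.13 (SE 0.22, adjusted p 0.645) and for ZEB1 0.99 (SE 0.45, adjusted p 0.0856), with 1.27 (adjusted p 0.0306) under median-of-ratios scaling, 1.36 (0.00651) without H460 ISP-I library 3 and 1.24 (0.0351) without A549 control library 3. ZEB2 depended on the scale: 0.90 higher in H460 on log2(FPKM + 1) (adjusted p 0.00181) but -0.72 on the recovered reads (adjusted p 0.299). In the study's viability and apoptosis assays, H460 responded more strongly to ISP-I than A549. With a single dose of 10 µM, line and effective strength of the dose cannot be told apart here.

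The order of the levels within a group, in FPKM per listed length, shows what each line held most of. In H460 controls FN1 (131.5 ± 3.08, SD, n = 3) came before VIM (73.0 ± 1.90), SNAI1 (12.6 ± 0.846) and CDH2 (5.65 ± 0.475), followed by SNAI2 (1.75 ± 0.190), ZEB1 (1.64 ± 0.464) and ZEB2 (1.17 ± 0.154), where ZEB1 overlapped each of its neighbours. After ISP-I the H460 order began with VIM (70.5 ± 9.20), SNAI2 (49.8 ± 1.76), SNAI1 (42.9 ± 4.98) and FN1 (35.9 ± 9.84), the last 2 overlapping, so that SNAI1 RNA was about as frequent per listed length as FN1 RNA. In A549 controls the order was VIM (68.6 ± 11.9), FN1 (15.96 ± 0.468), CDH2 (8.21 ± 0.516), CDH1 (4.90 ± 0.245) and ZEB1 (3.06 ± 1.11), and after ISP-I VIM (102.8 ± 5.53), ZEB1 (7.28 ± 0.463), CDH2 (5.03 ± 0.0913), FN1 (4.04 ± 0.331) and SNAI1 (2.98 ± 0.185). CDH1, the fourth of the 10 in A549 controls, was the ninth after ISP-I. The listed lengths exceed those of the MANE Select transcripts by up to 2.82 times (ZEB2, 26111 against 9265 bases) and equal it for SNAI1 (1705 bases). Per MANE Select length, CDH2 (10.8) stood level with ZEB1 (10.6) in treated A549 cells and FN1 (73.8) with SNAI2 (74.9) in treated H460 cells. On that scale FN1 in treated H460 cells (50.7 to 88.3) lay above SNAI1 (37.4 to 47.2), so their like level held per listed length only. The ratio of FPKM between groups within a gene does not depend on the length, but the change on log2(FPKM + 1) does, most for genes of low level such as ZEB2. An annotated noncoding gene lies on the opposite strand over exons of CDH1, CDH2, VIM, ZEB1 and ZEB2, and since the strand setting of the counting is not given in the sources used here, its reads may be included.

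The 7 further lists, 147 genes in all, were taken from general knowledge for the neighbours of these genes in EMT, with earlier results of these data known. Beside each count of calls below stand the shares over all genes tested. These were 25.7% in H460 (10.5% higher, 15.2% lower) and 7.71% in A549 (4.2% higher, 3.51% lower). No list or marker set was tested as a set, and the counts are given as a description. Adhesion and junction partners of E-cadherin had 15 of 23 genes tested in H460, with 0 called higher and 1 lower, and 18 in A549, with 1 higher and 1 lower. In A549 the gene called lower was JUP (plakoglobin, a catenin of junctions), from 22.0 ± 1.82 to 5.54 ± 0.331 FPKM (log2 -1.81, adjusted p 1.61e-06), whereas in H460 it was 27.2 ± 2.95 and 30.9 ± 3.71 (adjusted p 0.258). NECTIN4, an adhesion receptor, rose in A549 from 0.219 to 2.45 FPKM (1.501, adjusted p 2.18e-06), and NECTIN1 fell in H460 from 4.89 to 0.838 (-1.68, adjusted p 4.24e-06). NECTIN1 also fell in A549, from 5.15 to 2.16 (-0.96, adjusted p 1.77e-05), under the threshold on log2(FPKM + 1). The median change of these junction partners was 0.07 in A549 and 0.09 in H460.

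Among 18 epithelial transcription and splicing regulators, 8 were tested in H460 (2 called higher, 0 lower) and 12 in A549 (0 higher, 1 lower), with medians of 0.43 and -0.07. KLF5, a Krüppel-like factor of epithelia, rose in H460 from 2.46 ± 0.403 to 26.4 ± 3.66 FPKM (log2 2.99, adjusted p 8.42e-07) to about the level of A549 (21.9 and 22.0). KLF4 rose in H460 from 15.6 to 40.1 (1.31, adjusted p 2.59e-05) and less in A549, from 8.80 to 13.2 (0.53, adjusted p 0.000752). ELF3, an epithelial ETS factor, fell in A549 from 13.4 ± 1.12 to 4.89 ± 0.188 (-1.29, adjusted p 7.04e-06).

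Mesenchymal structural and surface genes moved both ways, with 21 of 28 tested in H460 (2 called higher, 4 lower, median -0.11) and 27 in A549 (1 higher, 1 lower, median -0.12). In H460 CDH11, a mesenchymal cadherin, fell from 9.57 ± 0.957 to 0.804 ± 0.136 FPKM (log2 -2.55, adjusted p 8.66e-07) and LOXL2, a lysyl oxidase of matrix, from 23.6 to 5.44 (-1.95, adjusted p 1.2e-05). LOXL2 was lower in A549 as well, from 45.43 to 26.75 (-0.74, adjusted p 6.22e-05). AXL, a receptor kinase often high in mesenchymal carcinoma cells, rose in H460 from 9.69 ± 1.34 to 44.2 ± 2.74 (2.09, adjusted p 2.68e-06) and had 161.5 and 150.3 FPKM in A549 (adjusted p 0.222). In A549 TNC, the matrix protein tenascin, fell from 4.65 to 0.764 (-1.68, adjusted p 1.45e-06) and GREM1, a BMP antagonist, rose from 0.657 to 3.99 (1.59, adjusted p 4.45e-06). TNC moved the other way in H460, rising to 2.62 FPKM (0.97, adjusted p 7.72e-05), under the 2-fold threshold.

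Of 20 other transcription factors of EMT, 17 were tested in H460 (4 called higher, 3 lower, median 0.02) and 16 in A549 (2 higher, 0 lower, median 0.34). ETS1 rose in each line, from 6.23 ± 0.712 to 97.6 ± 13.5 FPKM in H460 (log2 3.77, adjusted p 3.38e-07) and from 11.6 ± 1.39 to 35.2 ± 2.26 in A549 (1.52, adjusted p 6.89e-06). HMGA2, a chromatin protein, rose from 4.12 to 9.80 in A549 (1.08, adjusted p 1.19e-05) and from 0.213 to 2.88 in H460 (1.67, adjusted p 1.99e-06), and BHLHE41 from 3.09 to 17.8 in H460 (2.20, adjusted p 5e-06). BHLHE41 was higher in A549 too, from 0.214 to 0.680 (0.48, adjusted p 0.00212). TBXT, the mesoderm factor brachyury, was at 388.3 ± 18.6 FPKM in H460 controls, fell to 58.2 ± 3.25 (-2.72, adjusted p 8.2e-07) and was near 0 in A549 (0.0261 and 0.0428). In H460, then, brachyury fell while SNAI1, SNAI2, ZEB1 and ZEB2 rose.

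TGF-beta, the best-known inducer of EMT, acts through receptor kinases and SMAD proteins. All 21 genes of its list were tested, with 3 called higher and 5 lower in H460 (median 0.13) and 0 higher and 5 lower in A549 (median -0.33). TGFBI, a matrix protein induced by TGF-beta, fell from 181.2 ± 8.07 to 76.0 ± 9.90 FPKM in H460 (log2 -1.25, adjusted p 6.83e-05) and from 152.8 ± 4.15 to 23.3 ± 0.416 in A549 (-2.66, adjusted p 8.88e-08). LTBP3, which binds latent TGF-beta, fell in each line (-1.87 and -1.40, adjusted p 2.68e-06 and 2.77e-06). TGFBR2, the type II receptor, fell in A549 from 37.9 to 15.6 (-1.23, adjusted p 2.86e-06) and was higher in H460, 3.43 against 6.96 (0.83, adjusted p 0.000756). ENG, the coreceptor endoglin, fell in H460 from 20.5 to 2.81 (-2.50, adjusted p 1.4e-06), where the SMAD corepressor SKIL rose from 1.58 to 7.54 (1.69, adjusted p 0.0001).

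Genes for the turnover and corepressors of Snail proteins were all tested, 21 of 21, with 3 called higher and 4 lower in H460 (median -0.19) and 0 higher and 1 lower in A549 (median -0.01). HDAC1, a deacetylase recruited by Snail, fell from 26.0 to 6.72 FPKM in H460 (log2 -1.80, adjusted p 2.28e-06) and from 30.8 to 14.9 in A549 (-0.998, adjusted p 5.8e-06). Its scaffold partner SIN3A fell from 10.7 to 3.92 in A549 (-1.25, adjusted p 6.2e-06) and from 6.24 to 3.35 in H460 (-0.74, adjusted p 0.00123). CTDSP1, a small phosphatase that acts on Snail, fell in H460 (-1.86, adjusted p 4.53e-06), and LATS2, a kinase that phosphorylates it, rose there from 6.01 to 28.0 (2.05, adjusted p 1.94e-06). Each moved the same way in A549, CTDSP1 by -0.69 (adjusted p 0.000349) and LATS2 by 0.84 (adjusted p 8.48e-05).

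Genes for the receptors and assembly of fibronectin and for the turnover of E-cadherin gave 2 called higher and 2 lower of 14 tested in H460 (median 0.04) and 2 higher and 0 lower of 16 in A549 (median -0.12). SDC4, a syndecan that binds fibronectin, rose in H460 from 24.5 ± 1.53 to 142.2 ± 3.90 FPKM (log2 2.49, adjusted p 7.74e-07) and less in A549 (0.56, adjusted p 0.000171). CBLL1 (Hakai), an E3 ligase that directs E-cadherin to endocytosis, rose in each line, from 8.98 to 44.6 in H460 (2.19, adjusted p 3.78e-06) and from 7.81 to 18.2 in A549 (1.13, adjusted p 7.42e-06). ADAM15 fell in H460 from 53.7 to 22.8 (-1.21, adjusted p 3.96e-05) and less in A549 (-0.75, adjusted p 0.000131). KLK6, a secreted protease, rose in A549 from 0.0114 to 1.23 FPKM (1.13, adjusted p 1.93e-05) and less in H460, from 0 to 0.378 (0.46, adjusted p 0.001). With controls near 0, it passed the filter of 0.1 FPKM in each line through the treated libraries only. Its p values, and its place among the 2 called higher in A549, carry that limit. Of the 6 epithelial markers, 4 were tested in H460 (0 called higher, 1 lower) and 6 in A549 (0 higher, 1 lower, CDH1), and of the 13 others 3 in H460 (0 higher, 1 lower) and 2 in A549 (0 called). KRT19 fell in H460 from 121.9 to 56.9 (-1.08, adjusted p 0.00025), and COL3A1, a fibrillar collagen of fibroblasts, from 8.60 to 2.25 (-1.56, adjusted p 5.17e-06). KRT19 was lower in A549 as well (-0.51, adjusted p 0.00538).

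**Figure D4:**
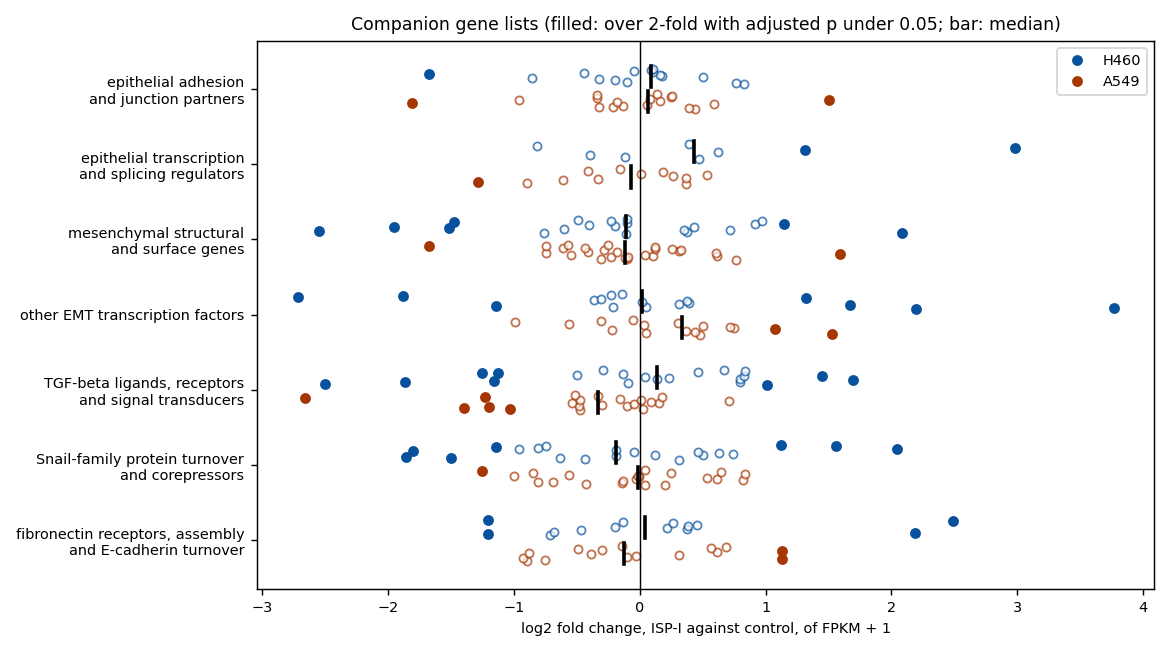
Log2 fold change of FPKM + 1 after ISP-I (x axis) for each tested gene of the 7 companion lists (rows) in H460 (blue) and A549 (brown), with filled points for calls over 2-fold and a bar at each list's median. Medians lay between -0.33 and 0.43 while single genes reached 3.77 (ETS1 in H460), and each list had calls in H460, where 25.7% of all genes tested were called.

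Genes were also ranked by how their log2(FPKM + 1) followed a member over the 12 libraries, out of 6650 genes that averaged 5 FPKM or more. Such correlations rest largely on the 4 group levels and are given as a description. Nearest to CDH1 were VMP1 (Pearson r 0.98), GPX2 (0.978) and KRT8 (0.977). GPX2, a glutathione peroxidase, went from 73.8 to 9.09 FPKM in A549 with 0.602 and 0.335 in H460, and KRT8 from 649.9 to 323.6 with 194.4 and 189.8. Nearest to CDH2 were IPO8 (0.992), YWHAB (0.99) and SH3BGRL (0.986), to FN1 HNRNPM (0.997), APLP2 (0.993) and UGGT1 (0.99), and to VIM EIF1B (0.961), TMEM11 (0.96) and TMX2 (0.957).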

How the data were processed

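Per the study's methods, reads were paired-end, quality control used FastQC, HISAT2 aligned them to hg38, and HTSeq 0.9.1 counted them per gene, from which the authors made the deposited FPKM values. The annotation version and strand setting are not given in the sources used here. The table's columns name line and treatment only, so libraries were numbered by their order within a group. A further 4 broken lines with no gene identifier were left out.

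The low FPKM values showed steps of single reads: 100% of values gave whole reads (within 0.01 of a read), and these recovered reads set the depth of each library. Counting intervals and the limit of 3 reads cover counting error only. Log2(FPKM + 1) was fitted with limma 3.58.1 (R 4.3.3, with its trend option), keeping genes that averaged 0.1 FPKM or more in the libraries fitted, with Benjamini-Hochberg adjustment across all of them. A call needed an adjusted p under 0.05 together with a change of more than 2-fold. The procedure was tested on simulated data. The pseudocount of 1 compresses low levels, so voom on the recovered reads (10 reads in 3 libraries) is given beside some low genes among the 10. Other low genes, those of the lists included, have the compressed value only.

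Members and lists were chosen with earlier results of these data known. Named genes were the 10 members, up to 3 called genes per list and line with the largest change and no overlap between groups, and the 3 genes most alike CDH1, CDH2, VIM and FN1. Alternatives were a pseudocount of 0.1, a higher minimum of 1 FPKM, no minimum, median-of-ratios scaling, quantile normalization, voom, 1 fit over 12 libraries, and leaving out each library. Lengths of MANE Select transcripts (GENCODE 44) were added after the data were seen. Python 3.11.15 with pandas 2.3.3 read the tables.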

Additional observations from a re-analysis of the deposited data

Results flagged for a closer look

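The change with ISP-I differed between the lines, H460 minus A549, by more than 1 on the log2(FPKM + 1) scale with a limma interaction adjusted p under 0.05 for SNAI2 (3.55) and CDH1 (1.77). For CDH1 the H460 libraries held 5 reads in all, so the difference restates its fall in A549 and is no separate result. Of the lists, only genes named above for a large called change in a line of these data were looked at here. That choice favours differences between the lines, so they are a description only, and other list genes are left out. Over all genes tested, 5.93% had a called positive difference and 10.1% a negative one. Among the named genes the difference was positive for KLF5 (2.97), TNC (2.65), ETS1 (2.24), AXL (2.19), TGFBR2 (2.06), JUP (1.99), SDC4 (1.92), SKIL (1.80), BHLHE41 (1.72), TGFBI (1.41), ELF3 (1.32), LATS2 (1.21) and CBLL1 (1.06). Among the positive differences, TGFBI fell in each line but more in A549, and JUP fell in A549 with no change that passed in H460. TNC and TGFBR2 fell in A549 and rose in H460, and ELF3 fell in A549 and was not tested in H460. The difference was negative for TBXT (-2.74), ENG (-2.52), CDH11 (-2.46), GREM1 (-1.59), COL3A1 (-1.53), NECTIN4 (-1.36), LOXL2 (-1.21) and CTDSP1 (-1.17). A level near 0 leaves little room to fall: TBXT (0.0261 FPKM in controls), COL3A1 (0.0983), CDH11 (0.141) and ENG (0.473) were low in A549, and ELF3 (0.0437) in H460. GREM1 and NECTIN4 rose in A549, and in H460 GREM1 averaged 0 FPKM in controls and 0.00532 after ISP-I, and NECTIN4 0.0190 and 0.120. ELF3, GREM1 and NECTIN4 were too low to be tested in H460 alone, and TBXT and COL3A1 in A549 alone. Their differences thus largely restate the change in the other line.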

How the results depend on the processing

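The number of genes called depended on the scale. In H460 it was 5786 with a pseudocount of 0.1, 6026 with voom on library totals and 5831 with voom on median-of-ratios, against 3456. In A549 these were 2398, 2590 and 2597, against 1056, between control cells 3614, 3756 and 3765, against 1951, and for the difference between the lines 4239, 4381 and 4023, against 2234. Members called in A549 numbered 6 under each of the 3 settings, against 3. Members with a called difference between the lines numbered 5 with median-of-ratios scaling, 4 with quantile normalization and 4 with voom on median-of-ratios, against 2, and 2 to 4 when a library was left out (4 without H460 ISP-I library 3). The added 1 holds low genes below a 2-fold call by its construction, and the other causes were not tested. Signs turned for VIM in H460 (0.23 with median-of-ratios scaling, 0.23 with voom on it, and -0.144 to 0.0429 when a library was left out, positive without ISP-I library 2), for VIM between control cells (-0.0199 with quantile normalization) and for 3 genes in the difference between the lines. These were FN1 (0.0477 with a pseudocount of 0.1, 0.16 with median-of-ratios, 0.0340 with quantile normalization, 0.0712 and 0.39 with voom, and -0.276 to 0.112 when a library was left out, positive without H460 ISP-I library 3), ZEB2 (-0.72 and -0.41 with voom) and TWIST1 (0.37 and 0.69 with voom), and where the sign turned no adjusted p was under 0.05. Of 563 values of single members under the alternatives, 525 kept direction and side of an adjusted p of 0.05, 18 rose above it, 6 fell below it and 14 turned. With the 2-fold threshold as well, calls were also lost for CDH2 in H460 with median-of-ratios scaling and quantile normalization (-0.98 each), for ZEB2 in H460 without ISP-I library 2 (0.94) and for ZEB1 in A549 without control library 3 (0.82). No paired analysis was possible because the table's columns carry no replicate number shared between groups. At this depth CDH1, EPCAM and TWIST1 could not be tested in H460.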
